A study of Mus musculus with 9 samples.

Results

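Bloc1s1, Tapbp, Hgsnat, Ergic3 and Itgb2 are transcripts known as substrates of IRE1-dependent RNA decay, and they were followed here through the B, plasma, T and dendritic cells of the mouse spleen. They were taken by symbol from the gene rows of the count files and make up 5 of 55385 genes. Spleens were wild type (WT, 4 hashtag replicates), heterozygous for the R594C change in IRE1 (R594C/+, 4 replicates) or homozygous for it (R594C/R594C, 2 replicates). Total splenocytes sorted with the dye DAPI were profiled by CITE-seq, in which each droplet yields both RNA and antibody-tag counts, and the study asked whether the mutation affects immune cells. Each genotype was a single capture, so an effect of genotype cannot be told apart from one of the capture or of the staining tube. The labels speak of replicates without naming separate animals, so p-values measure the spread between these samples. The labels used here give no age or strain for the groups.

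IRE1, encoded by Ern1, sits in the membrane of the endoplasmic reticulum (ER) and carries a kinase and an RNase domain. Its RNase excises an intron from Xbp1 messenger RNA, which yields the transcription factor XBP1s, and it also cleaves other ER-bound transcripts, a process called regulated IRE1-dependent decay. That decay is best known from cells that lack XBP1, where IRE1 is hyperactive, and among dendritic cells from the cDC1 subset. Reads here come from the 3' ends of transcripts, so a count shows the amount of a transcript and not whether it was cleaved.

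The members differ in what they encode. Bloc1s1 (ENSMUSG00000090247, chr10:128919914-128923524, GRCm38.p6 as are the other positions) encodes a subunit shared by BLOC-1 and BORC, complexes that build and position lysosomes and related organelles. Tapbp (ENSMUSG00000024308, chr17:33919478-33929290) encodes tapasin, which holds MHC class I at the peptide transporter for loading. Hgsnat (ENSMUSG00000037260, chr8:25944459-25976744) encodes a lysosomal membrane enzyme that acetylates heparan sulfate for its breakdown. Ergic3 (ENSMUSG00000005881, chr2:156008028-156018279) encodes a carrier that cycles between the ER and the Golgi. Itgb2 (ENSMUSG00000000290, chr10:77530329-77565708) encodes the integrin beta2 chain CD18, which pairs with CD11a, CD11b or CD11c on leukocytes.

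The 3 captures held 16027 to 17980 barcodes and 74538447 to 87953814 RNA UMIs (molecular tags that mark original molecules), with 0.900% to 0.934% of barcodes shared with another capture. After filtering, replicates held 2943 to 7281 cells. Sex-linked transcripts marked 1 of 4 WT, 4 of 4 R594C/+ and 1 of 2 R594C/R594C replicates as female. Transcripts of red cells and neutrophils, found in cells that do not make them, were higher in the B-like and T-like cells of the mutant captures. In B-like cells 4 hemoglobin genes summed to 65.7 to 71.6 CPM (UMIs of a gene in 1000000 UMIs of the class) in WT, 171 to 207 in R594C/+ and 206 to 221 in R594C/R594C, and 3 neutrophil genes (S100a8, S100a9, Camp) to 22.6 to 35.0, 112 to 127 and 63.2 to 64.9.

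Cells were clustered with the members and their pathway genes left out, and clusters were named from markers. B-like cells (22729 cells, 1584 to 4284 per replicate) held Cd79a, part of the B cell receptor, at 2159 to 2678 CPM, against 21.5 to 38.0 in T-like cells. T-like cells (13271) held the T cell receptor chain Cd3e at 426 to 575 CPM, against 1.65 to 4.53 in B-like cells. Plasma-like cells (1103, 57 to 154 per replicate) held the antibody joining chain Jchain at 21543 to 34049 CPM, against 102 to 218 in B-like cells. Conventional dendritic cell-like (cDC-like) cells (961, 60 to 157 per replicate) held the growth factor receptor Flt3 at 112 to 149 CPM, against 2.41 to 7.02 in B-like cells. Among these, 187 cells were cDC1-like, with the chemokine receptor Xcr1 at 267 to 593 CPM, and 670 were cDC2-like, with Xcr1 at 0 to 6.34. The other 104 were migratory DC-like and were not tested separately.

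Levels across WT cells are described first, over 14 classes seen in all 4 WT replicates. Immunoglobulin transcripts took 45.9% to 53.7% of plasma-like UMIs in WT, which lowers the CPM of other genes there. The places of plasma-like cells in these orders therefore depend on the CPM scale. Itgb2 was highest in neutrophil-like cells at 473 ± 136 CPM (SD, n = 4, as for the WT values that follow), NK-like cells at 451 ± 55.0 and monocyte-like cells at 349 ± 53.5. It was lower, at 234 ± 40.4 in macrophage-like, 194 ± 13.9 in cDC2-like, 192 ± 69.8 in cDC1-like and 125 ± 15.1 in CD8 T-like cells, and at 64.3 ± 11.2 in B1-like cells. Below them came marginal zone B-like cells at 45.5 ± 5.91, follicular B-like cells at 37.5 ± 2.21, plasma-like cells at 36.4 ± 6.36 and transitional B-like cells at 26.4 ± 6.93. Between neighbours in this order, replicate ranges separated at 3 steps: monocyte from macrophage, CD8 T from B1, and B1 from marginal zone B.

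Tapbp ran from 246 ± 41.0 CPM in macrophage-like and 236 ± 33.9 in cDC1-like cells to 93.8 ± 0.907 in plasma-like cells. No pair of neighbours in its order differed beyond the replicate ranges. Hgsnat was at 120 ± 69.2 CPM in neutrophil-like, 55.3 (33.1 to 65.7 over replicates) in monocyte-like, 41.9 ± 22.3 in macrophage-like and 21.4 ± 8.26 in NK-like cells. Its B, plasma, T and dendritic levels lay between 12.2 ± 0.762 in CD8 T-like and 3.94 ± 7.88 in cDC1-like cells, the last resting on 3 UMIs, and the single step without overlap was from NK to CD8 T.

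Ergic3 had its highest mean in plasma-like cells, at 75.8 ± 2.11 CPM, and its lowest in neutrophil-like cells, at 25.6 ± 10.7, with no step without overlap between neighbours. Bloc1s1 ran from 31.4 ± 13.0 CPM in NK-like cells through 17.8 ± 1.26 in follicular B-like cells to 8.05 ± 2.83 in plasma-like cells. In neutrophil-like cells it had 0 UMIs, which allows up to 13.9 CPM (3 counts of 215618 UMIs, counting error only), in a class whose WT sums held 5 to 94 UMIs of each other member.

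**Figure D1:**
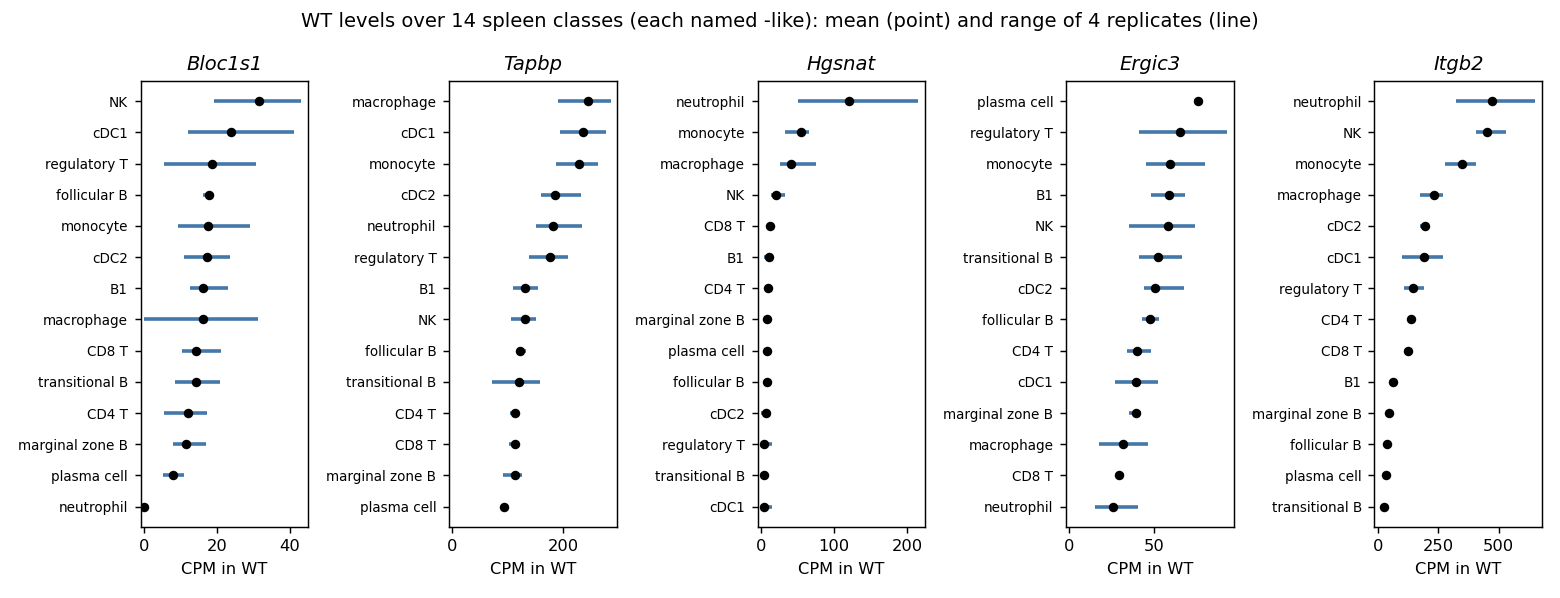
WT levels of the 5 transcripts (CPM, horizontal axes) in 14 spleen classes, ordered by mean in each panel; points are means and lines the range of 4 replicates. Itgb2 and Hgsnat lead in myeloid and NK-like cells, and Ergic3 in plasma-like cells. Immunoglobulin transcripts lower the CPM of other genes in plasma-like cells, so the places of that class depend on the scale.

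Genes with the most similar WT profiles were ranked by Pearson's r of log2(CPM + 10) over the 14 class means, among 9134 genes of at least 20 CPM in a class. Itgb2 was most like Myo1f, Furin and Abr (r = 0.93 each), Hgsnat most like Osm (0.96), Fcgr3 (0.95) and Lilr4b (0.94), and Tapbp most like Itpripl2, Rtn4 (0.94 each) and Cln3 (0.93). Bloc1s1 was most like Lamtor2, Cd48 and Tmem128 (0.93 each). Ergic3 was most like Tmem167 (0.86), H1f4 (0.82) and Tram1 (0.80), a protein of the ER translocation channel. All points come from the same 4 replicates of 1 capture, and shallow classes carry the same weight as deep ones. The plasma-like means are CPM with the immunoglobulin share included.

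Lineages were then compared within replicates, with edgeR's quasi-likelihood test and the replicate as a block. T-like cells differed from B-like cells in 4 of 5 members, where 73.2% of all genes differed. Itgb2 was at 139 ± 20.7 CPM in T-like and 40.3 ± 3.71 in B-like cells (SD, n = 10), higher in 10 of 10 replicates, with a log2 difference of 1.80 ± 0.05 (SE, edgeR adjusted p = 1.8e-22). Hgsnat was also higher in all 10, at 11.5 ± 1.39 against 7.94 ± 1.28 CPM (log2 0.59 ± 0.10, edgeR adjusted p = 7.7e-06). Ergic3 was lower in 9 of 10, at 37.8 ± 4.92 against 46.0 ± 3.47 CPM (log2 -0.29 ± 0.06, edgeR adjusted p = 5.8e-05). Bloc1s1 was lower by a smaller margin (log2 -0.18 ± 0.08, edgeR adjusted p = 0.042), a call lost without the WT replicates (-0.22, edgeR adjusted p = 0.071). Tapbp was at 111 CPM in both (log2 0.02 ± 0.04, edgeR adjusted p = 0.64).

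cDC-like cells exceeded B-like cells in 2 of 5 members, where 67.6% of all genes differed. Itgb2 was at 191 ± 26.9 CPM (log2 2.27 ± 0.08, edgeR adjusted p = 5.5e-27) and Tapbp at 198 ± 21.9 against 111 ± 10.5 CPM (log2 0.84 ± 0.06, edgeR adjusted p = 1.3e-17), both in 10 of 10 replicates. Bloc1s1, Hgsnat and Ergic3 gave log2 differences of -0.04, -0.06 and 0.11 and did not pass. Between the dendritic subsets, Tapbp was higher in cDC1-like than cDC2-like cells in 10 of 10 replicates, at 235 ± 39.2 against 172 ± 28.4 CPM (log2 0.53 ± 0.10, edgeR adjusted p = 8.3e-05), 1 of 3 members tested, where 44.7% of all genes differed. Itgb2 leaned the other way, at 176 ± 49.7 against 224 ± 32.0 CPM (log2 -0.29 ± 0.13, edgeR adjusted p = 0.058), and passed at -0.38 (edgeR adjusted p = 0.012) when libraries were scaled by totals alone. Bloc1s1 and Hgsnat were below the filter on low counts there.

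Ergic3 was higher in plasma-like than B-like cells in 10 of 10 replicates, at 79.6 ± 10.2 against 46.0 ± 3.47 CPM, where 72.0% of all genes differed. Immunoglobulin transcripts took 45.0% to 57.9% of plasma-like UMIs and 1.40% to 1.77% of B-like UMIs, so the scale decides how plasma-like levels read. With TMM, a scaling that sets most genes level between libraries, the log2 difference of Ergic3 was 1.73 ± 0.07 (edgeR adjusted p = 1.7e-21), and with library totals alone it was 0.79. Tapbp, Itgb2 and Hgsnat were called higher with TMM (log2 0.71, 0.73 and 0.58) but lay at -0.23, -0.21 and -0.35 with library totals, where Tapbp (edgeR adjusted p = 0.0032) and Itgb2 (0.018) were called lower and Hgsnat was not (0.053). The median of all genes went from -0.05 to -0.99. Relative to that median, all 3 were above it on both scales. Bloc1s1 was lower in 10 of 10 replicates in CPM, at 6.93 ± 2.34 against 15.6 ± 1.02, with a log2 difference of -0.25 ± 0.15 with TMM (edgeR adjusted p = 0.13) and -1.19 with library totals (edgeR adjusted p = 5.0e-09). On the scale of library totals 1 member, Ergic3, was thus called higher and 3 lower.

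The pathway genes around the members gave a frame for these class differences, in which they pass at high rates like most genes. All 12 listed XBP1s targets were higher in plasma-like than B-like cells (median log2 2.60, against -0.05 over all genes), as were 11 of 12 with library totals (1.67, against -0.99), led by Creld2, Sec24d, Sdf2l1 and Edem1. Ern1 was at 22.2 CPM in plasma-like, 14.5 in cDC-like, 7.20 in T-like and 2.48 in B-like cells. Xbp1 was at 1085 CPM in plasma-like, 105 in cDC-like and 63.8 in B-like cells. Xbp1 was left out of the clustering but was among the markers that named plasma-like clusters, so its high level there was part of the naming. All 7 listed carriers of the ER-Golgi intermediate compartment were higher in plasma-like cells (median log2 1.76), as were 6 of 7 with library totals (0.83), among them Lman1 (log2 3.46) and Ergic1 (3.29).

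For MHC class I peptide loading, the group of Tapbp, 9 of 10 other listed genes were higher and 1 lower in cDC-like than B-like cells (median log2 0.50). In cDC1-like against cDC2-like cells 6 were higher and 2 lower (4 lower with library totals), with the disulfide isomerase Pdia3 at 540 against 191 CPM and the transporter subunit Tap2 at 154 against 68.6. In the same subset comparison 8 of 11 tested XBP1s targets were higher and 0 lower (median log2 1.07), with Sdf2l1 at 337 against 103 CPM. Of the partners and regulators of Itgb2, 4 of 6 tested were higher in cDC-like than B-like cells: Itgax (CD11c, 191 against 2.39 CPM), Itgam (CD11b, 34.8 against 2.64), the ligand Icam1 (151 against 27.8) and the linker Tln1 (364 against 213). Of 12 BLOC-1 and BORC subunits, the group of Bloc1s1, 9 were lower and 0 higher in T-like than B-like cells. Of 7 heparan sulfate enzymes, the group of Hgsnat, 3 were higher and 1 lower in cDC-like cells, with Arsb at 54.0 against 6.03 CPM. In plasma-like against B-like cells the subunits had 3 higher and 6 lower with TMM and 0 higher and 11 lower with library totals, and the enzymes 2 higher and 4 lower and then 1 higher and 5 lower. The class I loading genes went from 10 of 10 higher with TMM to 4 higher and 6 lower with library totals.

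Genotypes were compared in each class by the same test over all genes, and no member passed an adjusted p of 0.05 in any class or contrast. In B-like cells 0 of 5 members passed for R594C/R594C minus WT (edgeR and DESeq2), with 3 of 5 at an unadjusted p under 0.05, where 0.166% of all genes passed and 6.52% had an unadjusted p under 0.05. For R594C/+ minus WT and R594C/R594C minus R594C/+ 0 of 5 passed by both tools, with 1 of 5 at an unadjusted p under 0.05 in each. Of all genes 0.356% and 1.31% passed, and 8.72% and 12.8% had an unadjusted p under 0.05. The values of 3 members did not overlap between R594C/R594C and WT, all lower, against 13.3% of genes without overlap in either direction and 7.85% lower. Between R594C/+ and WT 1 of 5 members was without overlap, lower, against 5.32% of genes (3.24% lower). Between R594C/R594C and R594C/+ 1 was lower and 1 higher, against 20.7% of genes (10.1% lower).

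Tapbp in B-like cells was at 135, 111, 115 and 121 CPM in WT, 106, 110, 109 and 104 in R594C/+ and 105 and 98.3 in R594C/R594C. All mutant values of both genotypes lay below all WT values. The log2 fold was -0.23 ± 0.07 for R594C/R594C minus WT (95% interval -0.38 to -0.09, edgeR adjusted p = 0.33) and -0.15 ± 0.06 for R594C/+ minus WT (edgeR adjusted p = 0.46). Itgb2 in B-like cells was at 41.6, 42.4, 40.2 and 44.6 CPM in WT, 44.7, 39.0, 36.4 and 43.6 in R594C/+ and 34.5 and 36.1 in R594C/R594C. The homozygous pair lay below every other replicate, with folds of -0.25 ± 0.09 against WT (95% interval -0.43 to -0.06, edgeR adjusted p = 0.53) and -0.23 ± 0.09 against R594C/+ (edgeR adjusted p = 0.27). Within B-like subsets, which were not tested between genotypes, follicular B-like cells held Itgb2 at 35.9 to 40.8 CPM in WT, 32.7 to 38.1 in R594C/+ and 33.2 and 34.5 in R594C/R594C, below WT but overlapping R594C/+. Marginal zone B-like cells, at 37.2 to 50.5 in WT and 37.1 and 46.5 in R594C/R594C, overlapped. B1-like cells were at 55.9 to 80.8 in WT, 42.6 to 78.7 in R594C/+ and 36.1 and 36.2 in R594C/R594C, the last from 37 and 41 UMIs, and made up 3.36% to 11.8%, 7.60% to 14.5% and 4.76% and 5.39% of B-like cells. The part of subset make-up in the B-like values was not tested.

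Hgsnat in B-like cells was at 8.85, 8.18, 8.64 and 9.23 CPM in WT, 8.03, 7.35, 9.93 and 6.35 in R594C/+ and 6.72 and 6.08 in R594C/R594C. The homozygous values were below the WT values and overlapped R594C/+ (log2 -0.43 ± 0.17 against WT, 95% interval -0.79 to -0.07, edgeR adjusted p = 0.66). Follicular B-like cells held Hgsnat at 7.28 to 10.3 CPM in WT and 7.18 and 6.84 in R594C/R594C. Marginal zone B-like cells, at 6.50 to 11.5 and at 11.6 and 8.14, were not lower. The homozygous values rested on 6 and 3 UMIs in B1-like and 4 and 1 in transitional B-like cells. Ergic3 was at 41.1 to 50.3 CPM over the 10 replicates, with a fold of -0.03 ± 0.10 (95% interval -0.23 to 0.17). Bloc1s1, the substrate most used as a readout of the decay, was at 15.2 to 16.8 CPM in WT, 14.1 to 15.6 in R594C/+ and 16.7 to 17.0 in R594C/R594C, with a fold of 0.10 ± 0.11 (95% interval -0.12 to 0.33). In the same contrast 7 of 8 free-RNA markers were called higher, with the summed levels given above. Their part in these values was not tested.

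**Figure D2:**
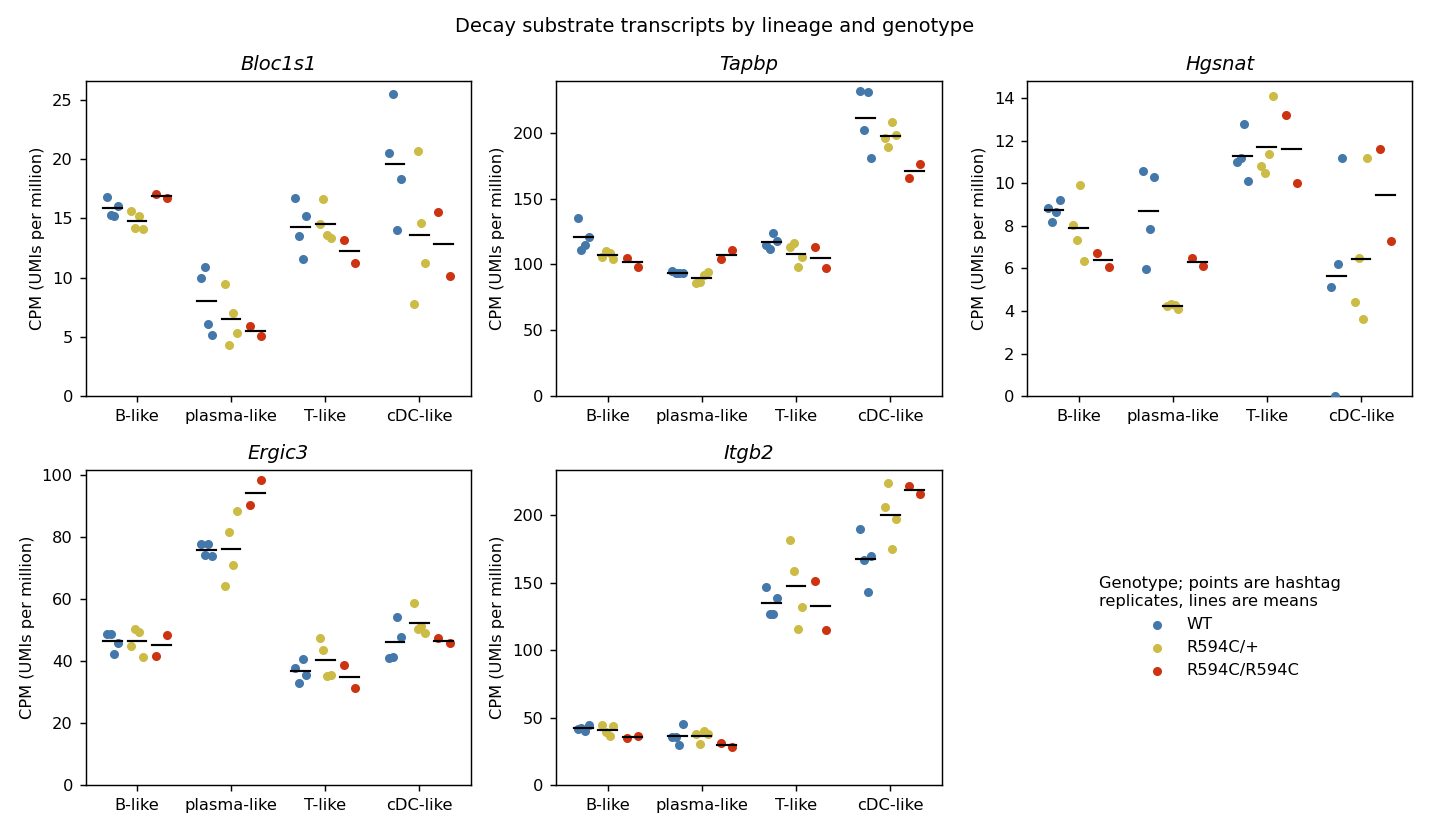
Levels of the 5 transcripts (CPM, vertical axes starting at 0) in 4 lineages; points are hashtag replicates coloured by genotype and lines are means. In B-like cells both R594C/R594C points of Tapbp, Hgsnat and Itgb2 lie below all WT points, and in cDC-like cells those of Itgb2 lie above them.

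In plasma-like cells 0 of 5 members passed for R594C/R594C minus WT by edgeR and DESeq2 (0 of 5 at an unadjusted p under 0.05), where 0.0344% of all genes passed. For R594C/+ minus WT 0 of 5 passed by both tools (1 of 5 unadjusted), where 0.0574% of genes did, and for R594C/R594C minus R594C/+ again 0 of 5 (1 of 5 unadjusted). Of all genes 5.79% and 4.65% had an unadjusted p under 0.05 in the first and second of these contrasts. In that last contrast 0% of genes passed with edgeR, with 488 (5.60%) at an unadjusted p under 0.05 and 19 called by DESeq2. Ergic3 was at 77.6, 74.1, 77.6 and 73.8 CPM in WT, 64.0, 81.6, 70.8 and 88.4 in R594C/+ and 90.2 and 98.3 in R594C/R594C. Both homozygous values were above all others in CPM, yet the TMM-scaled fold against WT was 0.21 ± 0.17 (95% interval -0.13 to 0.56, edgeR adjusted p = 0.98). Tapbp, at 104 and 111 CPM in R594C/R594C against 93.2 to 95.1 in WT, had a fold of 0.09 ± 0.14, and these 2 of 5 members without overlap compare with 12.2% of genes. Of those genes 766 were higher and 298 lower in R594C/R594C. Against R594C/+ 3 of 5 members were without overlap, all higher, where 23.5% of genes were, 1826 higher and 224 lower. Between R594C/+ and WT it was 1 of 5, lower, where it was 4.03% of genes (3.30% lower).

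Hgsnat in plasma-like cells was at 10.6, 5.99, 7.85 and 10.3 CPM in WT, 4.26, 4.33, 4.29 and 4.11 in R594C/+ and 6.48 and 6.11 in R594C/R594C, from 8 to 17 UMIs each. The heterozygous values lay below all others, with a fold of -0.92 ± 0.31 against WT (95% interval -1.55 to -0.28, edgeR adjusted p = 0.92). Bloc1s1 rested on 7 to 20 UMIs per replicate, at 5.17 to 10.9 CPM in WT and 5.94 and 5.09 in R594C/R594C (log2 -0.70 ± 0.41, 95% interval -1.55 to 0.15). Itgb2 was at 29.6 to 45.0 CPM in WT and 31.3 and 28.0 in R594C/R594C (log2 -0.42 ± 0.20, 95% interval -0.84 to 0.01). The immunoglobulin share of UMIs was 45.9% to 53.7% in WT, 51.7% to 57.9% in R594C/+ and 45.0% and 50.3% in R594C/R594C, and hemoglobin sums were 12.5 to 19.2, 47.7 to 59.2 and 48.0 to 51.5 CPM. Neutrophil markers summed to 130 CPM in WT replicate 1 and 6.10 to 11.8 in the other WT replicates. The part of these in the members' values was not tested.

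In T-like cells 0 of 5 members passed in any contrast by edgeR or DESeq2, with 1, 1 and 0 of 5 at an unadjusted p under 0.05, where 0.104%, 0.259% and 0.0692% of all genes passed for R594C/R594C minus WT, R594C/+ minus WT and R594C/R594C minus R594C/+. Of all genes 3.41%, 6.38% and 6.86% had an unadjusted p under 0.05 in these contrasts. No member was without overlap between R594C/R594C and WT, against 11.1% of genes. Tapbp was at 115, 112, 124 and 118 CPM in WT, 113, 116, 98.2 and 106 in R594C/+ and 113 and 97.1 in R594C/R594C. The groups overlapped, with folds against WT of -0.18 ± 0.08 (95% interval -0.34 to -0.01, edgeR adjusted p = 1.00) and, for R594C/+, -0.17 ± 0.07 (edgeR adjusted p = 0.66). Itgb2, at 115 to 182 CPM over all replicates, had a fold of -0.04 ± 0.12 for R594C/R594C minus WT (95% interval -0.30 to 0.22). Bloc1s1 (-0.24 ± 0.17), Ergic3 (-0.09 ± 0.12) and Hgsnat (0.02 ± 0.18) had intervals that include 0. Here 6 of 8 free-RNA markers were higher in R594C/R594C, with hemoglobin sums of 48.5 to 64.7 CPM in WT and 164 to 184 in R594C/R594C. Their part was not tested.

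In cDC-like cells 4 of 5 members could be tested, and Hgsnat, with 0 to 15 UMIs per replicate, fell under the filter. For R594C/R594C minus WT 0 of 4 passed by edgeR and DESeq2, with 2 of 4 at an unadjusted p under 0.05. In that contrast 0% of genes passed by either tool, with 379 (4.78%) at an unadjusted p under 0.05. For R594C/+ minus WT and R594C/R594C minus R594C/+ 0 of 4 passed by both tools (0 unadjusted), where 0.0378% and 0.0126% of genes did and 6.27% and 4.31% had an unadjusted p under 0.05. The members without overlap between R594C/R594C and WT were Tapbp (lower) and Itgb2 (higher), 2 of 4 tested against 11.3% of tested genes.

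Itgb2 in cDC-like cells was at 190, 167, 143 and 170 CPM in WT, 206, 224, 175 and 197 in R594C/+ and 222 and 216 in R594C/R594C. The homozygous values lay above all WT values, and the heterozygous values overlapped both (log2 0.38 ± 0.15 for R594C/R594C minus WT, 95% interval 0.08 to 0.68, edgeR adjusted p = 1.00; 0.24 ± 0.13 for R594C/+ minus WT). Tapbp was at 232, 202, 231 and 181 CPM in WT, 196, 189, 208 and 198 in R594C/+ and 166 and 176 in R594C/R594C. The homozygous values were the lowest of the 10, with a fold of -0.32 ± 0.14 (95% interval -0.61 to -0.02, edgeR adjusted p = 1.00). Bloc1s1 was at 19.6 CPM on average in WT against 13.6 in R594C/+ and 12.8 in R594C/R594C, where replicates overlapped (log2 -0.58 ± 0.39), and Ergic3 had a fold of 0.00 ± 0.21. In R594C/R594C 0 of 7 tested free-RNA markers were called. Neutrophil markers summed to 9.84 to 19.6 CPM in WT, 66.3 to 83.9 in R594C/+ and 27.4 to 44.9 in R594C/R594C. Hemoglobin sums, at 23.3 to 188 in WT, 89.0 to 122 in R594C/+ and 90.7 to 117 in R594C/R594C, overlapped. Neutrophil-like cells held the highest WT level of Itgb2, and the part of free RNA in its difference was not tested. Migratory DC-like cells held Itgb2 at 24.2, 22.5 and 10.1 CPM in WT replicates 2, 3 and 4, and 51.9 and 43.4 in R594C/R594C. R594C/+ replicates 1 and 3 had 24.8 and 87.2, and all these sums held 1 to 5 UMIs. In WT these cells were 6, 10, 12 and 13 of 67, 60, 72 and 81 cDC-like cells. In R594C/R594C they were 15 and 14 of 157 and 128. Their part in the cDC-like values of Itgb2 was not tested.

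The dendritic subsets were then tested separately. In cDC1-like cells, the subset best known for the decay, 0 of 3 members tested passed in any contrast by edgeR or DESeq2 (0 unadjusted), where 0% of genes passed in each. For R594C/R594C minus WT, R594C/+ minus WT and R594C/R594C minus R594C/+, 192 (4.77%), 225 (5.59%) and 149 (3.70%) genes had an unadjusted p under 0.05. No member was without overlap between R594C/R594C and WT there, against 12.1% of genes. Itgb2 was at 102 to 271 CPM in WT and 210 and 182 in R594C/R594C (log2 0.09 ± 0.27, 95% interval -0.47 to 0.64), and Tapbp at 194 to 277 and 167 and 245 (log2 -0.17 ± 0.23, 95% interval -0.64 to 0.29). With 10 to 28 cells per replicate, a difference of the size seen in cDC2-like cells lies within these intervals.

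In cDC2-like cells 0 of 3 members passed in any contrast by either tool, with 2, 0 and 1 at an unadjusted p under 0.05. For R594C/R594C minus WT 0% of genes passed by edgeR and DESeq2, with 331 (5.17%) at an unadjusted p under 0.05. In each of the other contrasts 0.0156% passed with edgeR, and 6.54% and 4.92% had an unadjusted p under 0.05. The gene called for R594C/R594C minus R594C/+ was Ighm, listed among decay substrates reported elsewhere (348 against 623 CPM, log2 -0.83, edgeR adjusted p = 0.018). Ighm was at 79867 CPM in plasma-like cells, and the part of free RNA in its cDC2-like value was not tested. The values of 2 of 3 tested members did not overlap between R594C/R594C and WT, against 11.2% of tested genes. Itgb2 was at 177, 190, 210 and 199 CPM in WT, 259, 262, 207 and 220 in R594C/+ and 246 and 265 in R594C/R594C (log2 0.38 ± 0.16 for R594C/R594C minus WT, edgeR adjusted p = 0.93). Tapbp was at 185, 165, 233 and 161 CPM in WT, 186, 156, 176 and 186 in R594C/+ and 138 and 135 in R594C/R594C (log2 -0.46 ± 0.18, 95% interval -0.82 to -0.09, edgeR adjusted p = 0.91). The homozygous replicates were thus the lowest for Tapbp and, with 2 heterozygous replicates, among the highest for Itgb2.

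**Figure D3:**
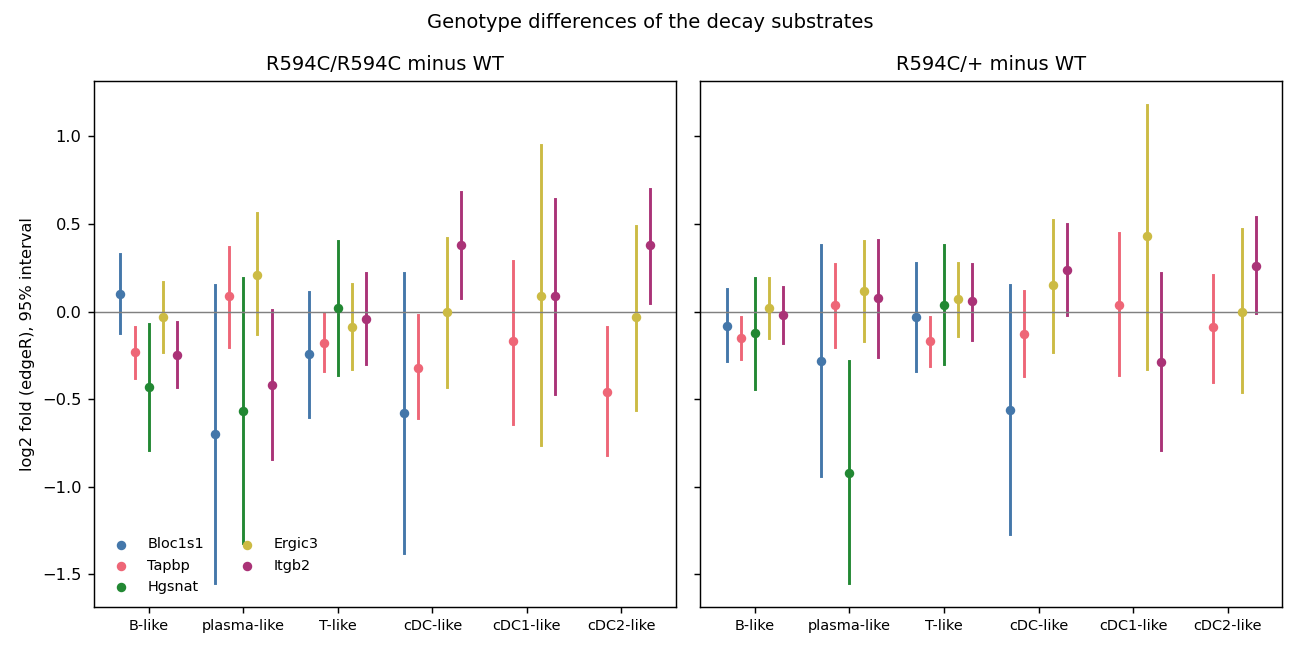
Log2 folds of the 5 transcripts against WT for R594C/R594C (left) and R594C/+ (right) by class, with 95% intervals from edgeR; members under the count filter are not drawn. For R594C/R594C, Itgb2 lies at -0.25 in B-like and 0.38 in cDC-like cells, and Tapbp below 0 in every class except plasma-like cells (0.09).

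Whether the R594C/R594C minus WT difference itself differed between classes was tested as an interaction with the replicate as a block. For cDC-like minus B-like cells, Itgb2 gave 0.66 ± 0.17 on the log2 scale (95% interval 0.32 to 1.01, edgeR adjusted p = 0.28, and 0.22 to 0.82 when a replicate or TMM was left out), from a fold of -0.25 in one class and 0.38 in the other. It did not pass, and 0 of 5 members did (1 unadjusted), where 0.0240% of genes passed and 4.71% had an unadjusted p under 0.05. For plasma-like minus B-like cells 0 of 5 members passed (1 unadjusted) where 0.0339% of genes did and 4.82% had an unadjusted p under 0.05, with Tapbp at 0.33 ± 0.16 and Bloc1s1 at -0.79 ± 0.41. For T-like minus B-like cells 0 of 5 passed (0 unadjusted) where 0.00760% of genes did and 4.55% had an unadjusted p under 0.05. For cDC1-like minus cDC2-like cells 0 of 3 passed (0 unadjusted) and 0% of genes did, with 252 (4.00%) at an unadjusted p under 0.05. The differences there were -0.29 ± 0.31 for Itgb2 and 0.25 ± 0.28 for Tapbp. DESeq2 was not run on the interactions.

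The pathway groups of the members were counted in the same contrasts. In B-like cells for R594C/R594C minus WT 0 genes of any pathway list passed, and 10 of 10 MHC class I loading genes (median log2 -0.18), 11 of 12 XBP1s targets (-0.25) and 6 of 6 tested Itgb2 partners (-0.32) lay below 0, against a median of 0.00 over all genes. For R594C/+ minus WT in B-like cells 0 genes of these 3 lists passed either, and 7 of 10 class I loading genes (median -0.02), 7 of 12 XBP1s targets (-0.01) and 3 of 6 Itgb2 partners (0.02) lay below 0. For R594C/R594C minus WT the medians were -0.09 for the heparan sulfate enzymes, -0.07 for the ER-Golgi carriers and -0.04 for the BLOC-1 and BORC subunits. They were -0.01 for IRE1 and Xbp1 splicing genes and -0.10 for 4 tested of 9 decay substrates reported elsewhere. Against R594C/+, B-like R594C/R594C cells had lower Sdf2l1 (log2 -0.51, edgeR adjusted p = 0.019), Creld2 (-0.45, 0.020) and Pdia4 (-0.43, 0.0060), 3 of 12 XBP1s targets, and lower Pdia3 (-0.34, 0.025) and H2-K1 (-0.26, 0.024), 2 of 10 class I loading genes, where 1.31% of all genes were called, 118 of 158 of them lower. The substrate Per1, a clock gene, was higher (log2 0.38, edgeR adjusted p = 0.0089), and Itgam lower at 0.858 against 3.25 CPM (log2 -1.90, edgeR adjusted p = 0.019). Of these 7 calls 6 were lost without R594C/R594C replicate 1 (edgeR adjusted p 0.12 to 0.28), 6 without replicate 2 (0.083 to 0.17) and 6 with antibody tag gates (0.069 to 0.52), while leaving out R594C/+ replicate 1, 2 or 4 ended 4, 3 and 2 of them. In the same contrast S100a8 (-1.18), S100a9 (-0.84) and Camp (-0.74), markers of neutrophils, were lower too, and their part in the Itgam value was not tested. B1-like cells made up 4.76% and 5.39% of B-like cells in R594C/R594C and 7.60% to 14.5% in R594C/+. The part of subset make-up in the 7 calls was not tested.

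The antibody panel held no antibody against CD18, but 3 against its partner chains, which reach the surface as pairs with CD18. Each antibody carries a DNA tag of 15 bases, whose letters are the sequence counted for the protein values below and are written 5′ to 3′ in capitals throughout.
CD11a: AGAGTCTCCCTTTAG
CD11b: TGAAGGCTCATTTGT
CD11c: GTTATGGACGCTTGC

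Between the dendritic subsets, the CD11a and CD11b tags per cell had the same order as their genes in CPM, and the CD11c tag had the opposite order. These scales are unlike: cDC1-like cells held a median of 12116 RNA UMIs and cDC2-like cells 7047, so an order in CPM need not hold per cell. In WT, CD11b was at 32.3 ± 3.36 per cDC2-like and 4.14 ± 1.12 per cDC1-like cell (SD, n = 4), and CD11a at 13.5 ± 1.90 and 45.4 ± 3.85. Itgam, the CD11b gene, was at 52.9 CPM in cDC2-like and 3.55 in cDC1-like cells over all genotypes (log2 for cDC1 minus cDC2 -4.06 ± 0.40, edgeR adjusted p = 1.4e-10), and Itgal, the CD11a gene, at 61.5 and 88.2 (log2 0.55 ± 0.16, edgeR adjusted p = 0.0051). CD11c was at 49.6 ± 2.78 tag UMIs per cDC1-like and 34.7 ± 3.84 per cDC2-like cell in WT, while its gene Itgax was at 124 CPM in cDC1-like and 239 in cDC2-like cells (log2 -0.87 ± 0.11, edgeR adjusted p = 4.9e-08). CD11a was at 8.85 ± 0.472 per B-like, 17.7 ± 1.14 per T-like and 19.1 ± 3.55 per plasma-like cell.

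By genotype, CD11a per B-like cell was 8.73, 9.53, 8.43 and 8.73 in WT, 9.93, 10.3, 8.62 and 8.51 in R594C/+ and 8.70 and 8.79 in R594C/R594C. All groups overlapped. CD11b per cDC2-like cell was 35.2, 27.6, 32.3 and 34.1 in WT, 32.7, 37.7, 27.7 and 25.4 in R594C/+ and 42.4 and 40.2 in R594C/R594C, the homozygous values being the highest. CD11c per cDC1-like cell was 46.8, 51.5, 52.5 and 47.7 in WT, 61.7, 75.5, 55.7 and 50.6 in R594C/+ and 71.4 and 75.6 in R594C/R594C, above all WT values.

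Tests of these tags depended on the scaling. With TMM over the panel, 2 of 3 tags were called for R594C/R594C minus WT in B-like cells, where 78.9% of antibodies were called, 1 in plasma-like (52.0%), 1 in T-like (70.2%), 3 in cDC-like (30.2%), 1 in cDC1-like (2.60%) and 3 in cDC2-like cells (25.6%), all of them higher in R594C/R594C on that scale. The cDC1-like call was lost without any single one of 8 replicates, and the plasma-like and cDC2-like counts went to 0 without R594C/R594C replicate 2. With library totals alone 0 of 3 were called in cDC-like, cDC1-like and cDC2-like cells, and other tags were called lower: CD11c in B-like (log2 -1.38, edgeR adjusted p = 0.0080) and T-like cells (-0.68, 0.0032), and CD11b in plasma-like cells (-1.87, 0.041). CD11a in B-like cells had a log2 fold of 1.51 with TMM and 0.08 with totals, beside per-cell means of 8.85 and 8.75. CD11b in cDC-like cells had 1.07 ± 0.16 with TMM (edgeR adjusted p = 4.2e-04) and 0.39 with totals (0.080). In B-like cells CD11b went from 0.92 to -0.61 and CD11c from 0.06 to -1.38, at fewer than 1 tag UMI per cell.

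**Figure D4:**
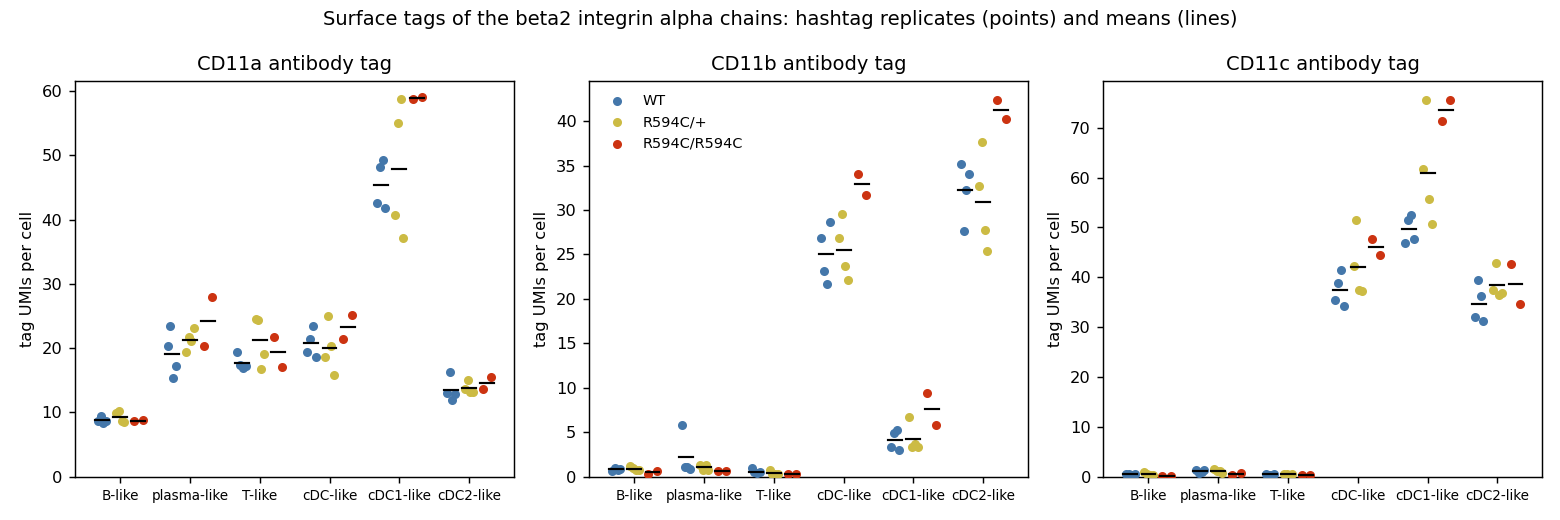
Antibody tag UMIs per cell (vertical axes from 0) for CD11a, CD11b and CD11c in 6 classes; points are hashtag replicates coloured by genotype and lines are means. CD11b separates cDC2-like from cDC1-like cells, and the homozygous points of each tag in cDC1-like cells lie above all WT points.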

How the data were processed

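The authors deposited raw UMI counts per gene, antibody and hashtag, from Cell Ranger 5.0.0 per the file headers; the submitters' processing notes name Cell Ranger, STAR, Seurat 3.1.4 and mm10. The feature table per the file headers also lists the tag oligos. Members, pathway lists and markers were chosen with earlier results of these data known. Barcodes under 200 genes or over 10% mitochondrial UMIs were dropped. HTODemux (Seurat 5.3.0, quantile 0.99) assigned hashtags, and 3.39%, 4.16% and 9.99% of single cells in WT, R594C/+ and R594C/R594C were removed as scored doublets. The 40987 cells gave 39 clusters (2000 variable genes, 30 components, 20 neighbours, leidenalg 0.10.2 at resolution 1.5), named from at least 3 markers.

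Counts were summed per replicate and class (at least 10 cells) and tested with edgeR 4.0.16 (robust quasi-likelihood, TMM, filterByExpr), with Benjamini-Hochberg adjustment over all genes at 0.05. Folds are log2 with standard errors, and intervals are 95% intervals from the t distribution. Antibodies entered at a mean of 10 UMIs per replicate. The script was tested on simulated data for R594C/R594C minus WT, with 100 genes changed. Of genes changed 1.5-fold it recovered 54.0% in B-like, 2.00% in plasma-like, 32.0% in T-like and 13.0% in cDC-like cells. In cDC1-like and cDC2-like cells it recovered 2.00% and 4.00%. Of genes changed 2-fold it recovered 71.0%, 28.0%, 67.0%, 48.0%, 29.0% and 37.0% in the same order, so changes of these sizes could be missed. Besides the members, listed genes past 0.05 could be named (up to 4 per list and comparison), with the 3 most similar genes of each member. Alternatives were DESeq2 1.42.0, no filter, no TMM, leaving out each replicate or genotype, a replicate block, sex as a term, another hashtag rule, doublets kept, resolution 1.0 and antibody gates. Gates on tags for dendritic subsets, and the alternatives of the interaction, were added after the data were seen. Positions come from the RefSeq table of GRCm38.p6.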

Additional observations from a re-analysis of the deposited data

Results flagged for a closer look

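Of 96 groups of 4 replicates (members and integrin tags by class and genotype), 6 held a replicate far from the others by Dixon's criterion for 4 values, and chance gives about 1 in 20. Hgsnat in cDC1-like cells was at 15.8 CPM in WT replicate 4 and at 0 in the other WT replicates, which allows up to 12.2 to 26.8 CPM in each (3 counts, counting error only). Ergic3 in cDC2-like cells was at 67.9 CPM in WT replicate 3, against 44.4 to 46.3. The CD11b tag was at 0.762 UMIs per T-like cell in R594C/+ replicate 1, against 0.298 to 0.368, and at 6.78 per cDC1-like cell in the same replicate, against 3.36 to 3.69. It was at 5.82 per plasma-like cell in WT replicate 1, against 0.901 to 1.15, the replicate in which plasma-like neutrophil markers summed to 130 CPM. The CD11c tag was at 42.9 per cDC2-like cell in R594C/+ replicate 2, against 36.5 to 37.4.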

How the results depend on the processing

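Over 17 to 18 alternatives per class and contrast, 321 counts of members called between genotypes were all 0, the lowest adjusted p of a member was 0.14 (Itgb2 in B-like cells, R594C/R594C minus R594C/+), and 45 of 75 member folds kept their sign throughout. The interaction of Itgb2 between cDC-like and B-like cells ranged from 0.57 to 0.74 (edgeR adjusted p 0.22 to 0.82). The replicate numbers come without a statement that they pair the samples. Correlations of same-numbered deviations in B-like cells were 0.08, 0.08, -0.15, 0.39, -0.09, 0.01, 0.03 and -0.14. With no reference for paired samples, these values do not decide whether the samples were paired. With the replicate number as a block, 0 members were called, and all-gene calls for R594C/R594C minus WT were 35 in B-like, 7 in plasma-like, 10 in T-like and 0 in cDC-like cells, against 20, 3, 12 and 0. The block ended 1 of the 7 pathway gene calls in B-like cells for R594C/R594C minus R594C/+ (Creld2, edgeR adjusted p = 0.050). These counts ranged from 3 to 101, 0 to 33, 1 to 29 and 0 to 17 over the alternatives, and for R594C/R594C minus R594C/+ in B-like cells from 11 to 475, against 158. In cDC1 minus cDC2, 2 members in place of 1 were called with no TMM, without WT and with antibody tag gates. Without TMM, plasma minus B turned to -0.23 for Tapbp, -0.21 for Itgb2 and -0.35 for Hgsnat, by construction a scale change. With doublets kept, Ighm in cDC2-like cells (R594C/R594C minus R594C/+), called at edgeR adjusted p = 0.018, went from -0.83 to 0.62 and was not called. The cause was not tested. Without TMM, called integrin tags numbered 1 in B-like and 0 in cDC-like, cDC1-like and cDC2-like cells, CD11b and CD11c in B-like cells turned to -0.61 and -1.38, CD11b in B-like cells against R594C/+ to -0.77, and CD11c in T-like cells to -0.68 and, for R594C/+, to -0.09. Leaving out 1 replicate gave 1 to 2 tags in B-like, 0 to 1 in plasma-like and cDC1-like and 0 to 3 in cDC2-like cells (0 in plasma-like and cDC2-like cells without R594C/R594C replicate 2); without R594C/R594C replicate 2, CD11b in B-like cells went to -0.18 against WT and -0.81 against R594C/+ (1.14 and 0.50 without replicate 1). A gate on CD138 for plasma-like cells was not run, because its tag did not separate them. Depth limits Hgsnat and Bloc1s1 outside B-like and T-like cells.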
